A study of Mustela putorius furo with 7 samples.

Results

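The wild-type-only (WT-only) regions were 3301 of the 95129 open chromatin regions (3.47%) measured by ATAC-seq in ferret pancreatic ductal epithelial (PDE) cultures. A region was counted as WT-only when it shared at least 1 bp with a peak in 3 or 4 of the 4 WT peak lists and with none in the 3 peak lists of the cystic fibrosis (CF) cultures. Peaks were present in all 4 WT lists at 989 of these regions and in 3 WT lists at the other 2312. The study grew PDE cells from newborn ferrets aged 1 to 3 days, passaged them 10 times and held them for 14 days at an air-liquid interface (ALI), and about 50000 cells of each culture were used per library. The CF group held 3 libraries from CFTR-knockout animals with both alleles disrupted, and the WT group held 4 libraries from animals with intact CFTR. No other treatment, transgene or allele is named for either group, and the CF and WT cultures shared the isolation, expansion and ALI culture. As models, both groups are expanded primary cultures and not tissue. The labels number 4 WT donors while the study's methods give 3 donors per genotype, so whether the 4 WT libraries came from 4 animals was not settled, and the spread between WT libraries may in part be technical.

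ATAC-seq uses a transposase that cuts and tags DNA where it is free of nucleosomes, so that reads pile up at promoters, enhancers and other regulatory elements that are open in a cell. Promoters active in most cell types tend to give wide and strong peaks, and distal elements, which vary more between cell states, tend to give narrower ones. CFTR is the anion channel of the apical membrane through which ductal cells of the pancreas secrete chloride and bicarbonate. Open chromatin was measured on scaffolds of the MusPutFur1.0 assembly. Genes, exons and sequences at the regions were not analysed here, so each region is named by its scaffold, start and end, and ductal marker genes were not checked.

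The 7 libraries held between 3226534 and 11047724 reads in the regions. Every CF library held more reads in the regions (8469877 to 11047724) than every WT library (3226534 to 8172005). Depth here means reads in the regions, and a library with few of them is called shallow. The peak lists held 79014 to 104397 peaks in CF and 48417 to 89157 in WT. Each column of the signal table matched a peak list of its own genotype best (7 of 7), but only 1 of 7 matched the list of its own number. Libraries are therefore called by their matrix column where signal is given and by their list where peaks are given, and the numbers of the 2 kinds of file were not joined. The genotype groups were unaffected.

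The regions were chosen by the presence or absence of MACS2 peak calls in the same libraries that gave the signal. Lower signal in CF was therefore built into the choice, and the CF and WT values below describe the regions. Calls from fits over all regions are given as counts and are no test of the WT-only regions. Signal is the normalised read count of a region, in which 1 read is worth 0.562 to 0.784 in the CF columns and 0.888 to 3.08 in the WT columns. In these bulk samples, fewer cells with an open region and a less open region in every cell cannot be told apart.

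At the WT-only regions the median signal was 8.63, 6.71 and 7.87 in columns CF1, CF2 and CF3, and 32.3, 33.8, 33.8 and 33.5 in columns WT1 to WT4. The 4 WT medians were close to each other and all CF medians lay well below them. The group means of these medians were 7.74 ± 0.962 (SD, n = 3) in CF and 33.3 ± 0.720 (SD, n = 4) in WT. In WT the regions were of ordinary strength, since their median stood at percentile 54.8 to 56.8 of all regions in the same library. In CF it stood at percentile 9.45 to 12.6, near the bottom of the table. The regions took 1.44% to 1.95% of the reads in WT and 0.436% to 0.489% in CF. In reads, the median region held 11, 9 and 14 reads in CF1 to CF3 and 22, 38, 11 and 20 in WT1 to WT4, so that counts in the shallowest WT library, WT3, were as low as those in CF.

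**Figure D1:**
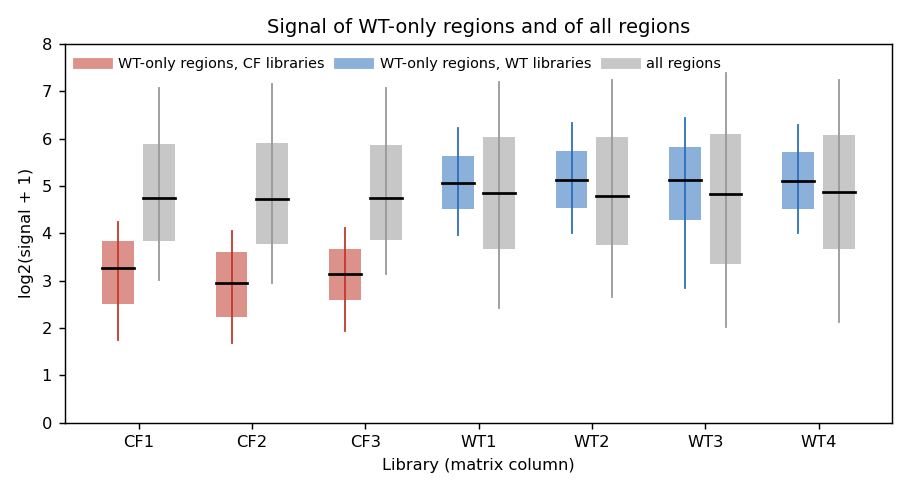
Signal on the log2(signal + 1) scale, by matrix column, for the WT-only regions (red in CF, blue in WT) and for all regions (grey), with the median over regions as a black line, the 25th to 75th percentile as a box and the 10th to 90th percentile as a thin line. The WT-only boxes lie low in the 3 CF libraries (medians of 6.71 to 8.63 in signal) and level with all regions in the 4 WT libraries (32.3 to 33.8).

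The residual CF signal was 22.7% of the WT signal in the median WT-only region, with 14.5% and 34.5% as the quartiles over regions. Taken library by library, the median was 23.6% for CF1, 20.0% for CF2 and 22.6% for CF3. CF signal was under 10% of WT at 388 regions, 10% to 25% at 1470, 25% to 50% at 1193 and 50% to 100% at 246, and 4 regions reached 100% or more. A share of 3.42% to 6.73% of the regions stood at the table's minimum of 1 read in each CF library. The residue was thus a measured low signal at most regions and a floor value at few. Expressed per kb of region, the CF median was 13.5 to 16.4 and the WT median 65.1 to 66.2.

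The regions that had a peak in all CF lists and in no WT list (4263 CF-only regions) gave the counterpart. Their rule was stricter, since it asked for every list of the genotype and the WT-only rule for at least 3 of 4. Median signal at the CF-only regions was 27.7 in CF and 8.49 in WT, against 33.9 in WT and 8.06 in CF at the WT-only regions. At the WT-only regions with all 4 WT lists it was 53.1 in WT and 8.37 in CF. Per kb, the WT residue at CF-only regions was 13.0 to 18.1, and the range over libraries contained that of the CF residue at WT-only regions. The low side of each set was therefore of like size, although 13.1% to 40.8% of the CF-only regions stood at 1 read in the WT columns.

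**Figure D2:**
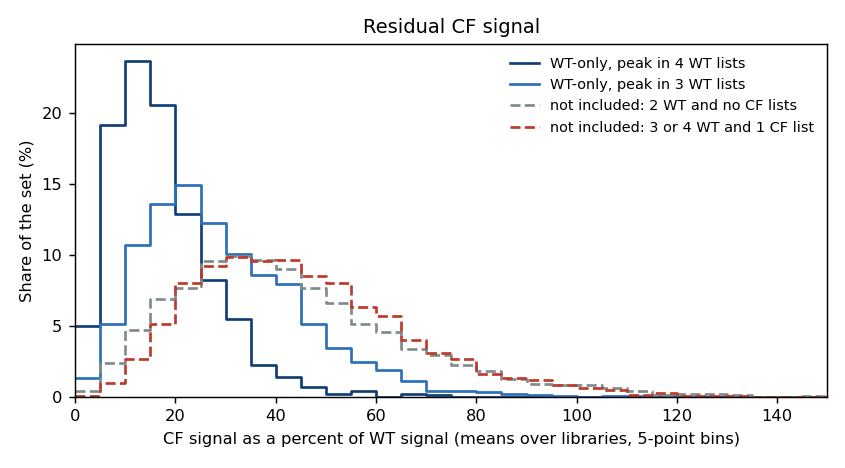
CF signal as a percent of WT signal (x axis) against the share of each set (%, y axis) for the WT-only regions with a peak in 4 or in 3 WT lists and for the regions just outside the rule (dashed). The medians run from 15.6% (4 WT lists) and 26.6% (3 WT lists) to 39.5% and 42.4% outside, the distributions overlap, and the few values past the axis are not drawn.

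On the log2(signal + 1) scale, the median WT-only region was 1.96 lower in CF (a difference of -1.96), with quartiles of -2.59 and -1.36 and a range from -5.68 to 0.54. The median difference was 0.03 over all regions and -0.16 over the 25143 regions with a peak in all 7 lists. Only 10 of the 3301 regions were higher in CF on this scale. By the limma fit over all regions (adjusted p under 0.05 and a difference past 1 on the log2 scale), 1910 WT-only regions (57.9%) were called less accessible in CF, beside 6.26% of all regions. Without column CF2 the number called was 1230, beside 4.10% of all regions, and edgeR's quasi-likelihood test on the recovered reads called 2180, beside 7.3% of all regions. All 3 CF libraries lay below all 4 WT libraries at 2335 of the regions (70.7%), beside 12.8% of all regions. Both shares follow from the choice of the regions and nothing is read from them. At the other regions the groups overlapped, with 1, 2 and 3 CF libraries at or above the lowest WT library at 352, 269 and 345 regions. Column WT3 was the lowest WT library at 55.3% of these overlapping regions and at 35.8% of all WT-only regions. Leaving out any WT column can only raise the number of separate regions. Without WT3 the groups were separate at 2809 of 3301 (85.1%), beside 17.2% of all regions. Without WT1, WT2 or WT4 the share was 76.1%, 72.5% or 74.9%, beside 17.3%, 14.4% or 15.6% of all regions.

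The regions were also split by the number of WT lists, which is part of the rule. Stronger and more even WT signal with 4 lists was therefore built into the split, and the values describe the 2 classes. The 989 regions with 4 lists had a median log2 difference of -2.57, a residual CF signal of 15.6% and 902 calls (91.2%). The 2312 regions with 3 lists had -1.70, 26.6% and 1008 calls (43.6%). Of all regions, 6.26% were called, and nothing is read from these shares. The 2 classes differed mainly in WT, where the median signal was 53.1 and 28.7 in the 4-list and 3-list regions, while that in CF was 8.37 and 7.85. The median SD between WT libraries was 0.46 on the log2 scale in the 4-list regions and 0.74 in the 3-list regions, beside 0.37 in regions with a peak in all 7 lists.

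A single list accounted for much of the 3-list class. Of the 2312 regions, 1479 (64.0%) had no peak in list WT2, 490 had none in WT4, 300 in WT1 and 43 in WT3. List WT2 was the shortest (48417 peaks) and list WT3 the longest of the WT lists (89157), so the missing lists followed list length. In the signal table, one column was low in each class. Column WT3 was lower by 1.09 on the log2 scale than over all WT-only regions where list WT2 had no peak, and column WT4 by 1.44 where list WT1 had none. Column WT1 was lower by 1.09 where list WT4 had none, and column WT2 by 1.69 where list WT3 had none. Column WT3, the shallowest in reads, thus went with the shortest list, and the part of depth in the 3-list class was not tested.

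Just outside the rule, 6104 regions had a peak in 2 WT lists and no CF list, and 2597 had a peak in at least 3 WT lists and 1 CF list. Their median log2 differences were -1.06 and -1.15, and CF reached 39.5% and 42.4% of WT. The 2-list regions were weak in both groups (median signal 16.6 in WT and 6.57 in CF), whereas those with 1 CF list were as strong in WT as the WT-only regions (34.7) with more signal in CF (14.2). The values moved by degrees across the threshold, and the regions on its 2 sides overlapped. A region outside could look like a member, as GL897099:3464136-3464553 did. Its signal was 7.84, 11.2 and 10.1 in CF1 to CF3 and 110.1, 179, 132 and 209 in WT1 to WT4, yet it had peaks in lists WT1 and WT3 alone. At the other edge, GL897119:2762683-2763180, with peaks in 3 WT lists and in CF2, was the strongest region in WT of its class and did not separate the groups, with 839, 525 and 522 in CF and 738, 376, 907 and 627 in WT.

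Stronger regions in WT held relatively less CF signal. In WT-signal quartiles of the WT-only regions from low to high, median WT signal was 20.1, 28.7, 39.9 and 66.9 and median CF signal was 6.39, 7.46, 8.46 and 10.7. CF signal as a percent of WT was 32.6%, 25.8%, 21.2% and 14.5%. WT signal enters this percentage, so its fall from quartile to quartile is in part arithmetic. Across the 3301 regions, log2 signal in WT and in CF had a Pearson correlation of 0.36 (Spearman 0.35), beside 0.90 over the regions with a peak in all 7 lists. The points share libraries and region width, and the choice of regions narrowed the range of CF signal. Between pairs of libraries, the correlation over the WT-only regions was 0.45 to 0.54 within CF, 0.30 to 0.61 within WT and 0.15 to 0.28 between genotypes.

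Peaks at the WT-only regions were weaker than those at regions open in every library. MACS2 fold enrichment over local background had a median of 5.70, 5.47, 6.53 and 5.53 in lists WT1 to WT4, against 8.01, 7.07, 8.87 and 7.99 at regions with a peak in all 7 lists. The direction was the same in 4 of 4 lists. Both sets were chosen by peak calls in these lists, so nothing is read from this direction. Over all regions with a peak in the list, the median was 6.15 to 6.32, above that of the WT-only regions in lists WT1, WT2 and WT4 and below it in WT3. The median −log10 q-value at the WT-only regions was 6.30, 5.07, 9.72 and 5.78, while the deposited lists reached down to 1.30. The 4-list regions had higher enrichment (6.68 ± 0.986, SD, n = 4 lists) than the 3-list regions (5.44 ± 0.417).

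The regions were seldom wide. Their median width was 509 bp (quartiles 422 and 633), beside 557 bp for all regions, 863 bp for regions with a peak in all 7 lists and 503 bp for CF-only regions. Widths of 1000 bp or more occurred at 73 regions (2.21%), beside 11.7% of all regions and 34.7% of those with a peak in all 7 lists. At the narrow end, 107 regions (3.24%) were 300 bp or less, fewer than among all regions (7.81%) and CF-only regions (6.29%). A region is the union of the peaks of several libraries and widens as more lists add a peak, so width is not independent of the number of lists. The median was 589 bp with 4 WT lists, 481 bp with 3 and 391 bp just outside with 2. Single peaks, which do not carry this union, had median widths of 345, 251, 419 and 314 bp in lists WT1 to WT4 at the WT-only regions. At regions with a peak in all 7 lists they measured 578, 411, 675 and 549 bp, wider in 4 of 4 lists. Single-peak width also went with the number of lists. In list WT1 it was 403 bp with 4 WT lists, 323 bp with 3 and 282 bp just outside with 2. Both sets were chosen by peak calls, so nothing is read from the direction. Width and log2 WT signal had a Spearman correlation of 0.51 across the WT-only regions.

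**Figure D3:**
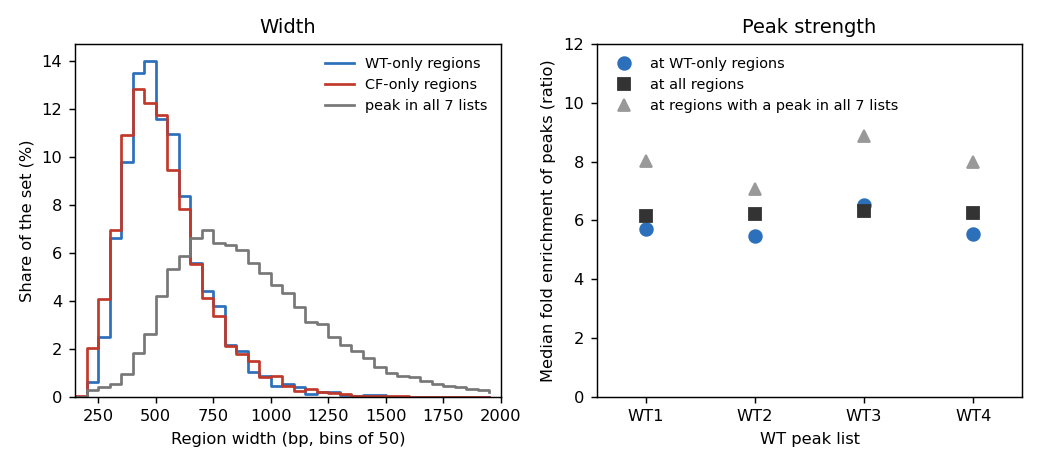
Left, share of each set (%) by region width in bp for the WT-only regions, the CF-only regions and those with a peak in all 7 lists, with the few widths past the axis not drawn; right, median fold enrichment of the peaks in each WT list. The WT-only widths lie below those of regions with a peak in all 7 lists (medians 509 and 863 bp), and their enrichment is lower than at those regions in each of the 4 lists.

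The strongest WT-only region in WT was also the widest, GL897015:4377871-4380005 (2135 bp), with peaks in all 4 WT lists. Its signal was 25.1, 19.4 and 32.6 in CF1 to CF3 and 829, 826, 935 and 613 in WT1 to WT4. The groups were far apart, with means of 25.7 ± 6.62 (SD, n = 3) and 800.9 ± 134.9 (SD, n = 4), and CF held 3.21% of WT (log2 difference -4.92, SE 0.23). Scaffold GL897015 held a further strong region, GL897015:4299241-4300150 (910 bp), with 5.49, 9.70 and 16.9 in CF and 289, 347, 486 and 337 in WT. Also on this scaffold, GL897015:4700410-4701609 (1200 bp), was among the regions with the largest fall, with 13.3, 3.73 and 6.18 in CF and 254, 333, 326 and 266 in WT. In each of these the lowest WT library exceeded the highest CF library many times over.

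The other strong regions lay on separate scaffolds. GL896936:2539032-2539934 (903 bp) had 23.5, 8.95 and 16.9 in CF and 291, 369, 431 and 461 in WT. GL896913:5867504-5868498 (995 bp) had 21.2, 12.7 and 8.99 in CF and 249, 345, 461 and 259.8 in WT, and a CF peak lay 1036 bp from it. GL896901:30949867-30951364 (1498 bp) had 8.63, 15.7 and 24.7 in CF and 213, 353, 397 and 285 in WT. CF held 4.24%, 4.34% and 5.24% of WT signal at these 3 regions, and their fold enrichment in the WT lists ran from 7.55 to 14.3.

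GL897037:4326285-4326674 was unusual among the strong regions, since it was 390 bp wide and had no peak in list WT1. Its signal was 10.2, 6.71 and 6.18 in CF and 203, 350.0, 584 and 454 in WT, and its log2 difference was -5.44 (SE 0.33). Its fold enrichment of 5.67 to 7.78 in the other 3 lists was near that of the strongest region (5.84 to 7.75).

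The largest fall of all was at GL897241:642892-644014 (1123 bp), with 2.35, 1.49 and 9.55 in CF and 225, 209, 286 and 196 in WT. These were 3, 2 and 17 reads in CF and 93 to 235 in WT, with a log2 difference of -5.68 (SE 0.43). It was the sole WT-only region of its scaffold, and the nearest region of any kind lay 45368 bp away. Signal in CF3 was the highest of the 3 CF libraries and still far below every WT library.

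At the remaining regions with the largest falls, each CF library held 1 to 4 reads. GL896962:1664685-1665273 (589 bp) had 3, 3 and 1 reads in CF and 63, 150, 49 and 67 in WT, and its fold enrichment of 10.6 to 18.6 was among the highest of the named regions. GL897032:3945065-3945630 (566 bp) had 1, 4 and 1 reads in CF and 46, 112, 25 and 41 in WT. GL897065:222139-222896 (758 bp) had 1, 1 and 4 reads in CF and 34, 109, 21 and 52 in WT. The sizes of such differences depended on the pseudocount. For GL896962:1664685-1665273 the log2 difference was -5.56 with a pseudocount of 1, -5.90 with 0.5 and -4.23 with 5. For GL897065:222139-222896 it was -5.08, -5.47 and -3.64.

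The 6 WT-only regions with the highest CF signal held 42.0% to 73.8% of WT signal in CF, without a CF peak call. GL897177:1606553-1606982 (430 bp) had 65.9, 73.9 and 70.2 in CF and 109, 95.04, 119.9 and 129 in WT, so that CF held 61.8% of WT and the groups still did not overlap. GL897203:775203-775587 (385 bp) had 64.3, 66.4 and 45.5 in CF and 64.6, 77.3, 105 and 72.1 in WT, with 1 CF library above the lowest WT library. GL896939:3241846-3242462 (617 bp) had 54.1, 68.6 and 48.3 in CF and 88.0, 159.9, 126 and 159 in WT. The other 3 were GL896909:2884631-2885049, GL897098:3358437-3358876 and GL896921:1012652-1013099, where CF held 47.6%, 42.0% and 42.4% of WT. The 6 shared a low fold enrichment in the WT lists, from 2.20 to 4.37, although their WT signal of 64.6 to 194 was above the median of the WT-only regions in every library. Each had peaks in 3 WT lists, and 5 of the 6 lacked list WT2. A CF peak lay 320 to 2699 bp from each of them.

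**Figure D4:**
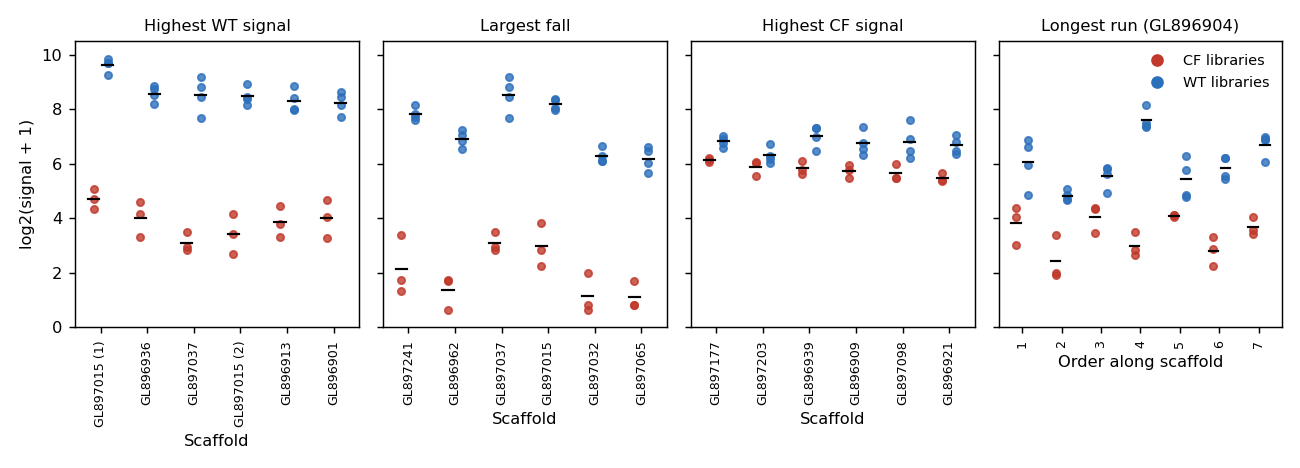
Signal on the log2(signal + 1) scale at the named regions, where each point is a library (red CF, blue WT) and black lines are group means. CF and WT points are far apart in the panels of highest WT signal and largest fall. They are closer together in the panel of highest CF signal (61.8% of WT at GL897177), and the 7 regions of the longest run vary.

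At the weak edge of the rule, GL897120:2642353-2642670 (318 bp) had the lowest WT signal, with 10.2, 5.97 and 2.25 in CF and 19.1, 7.11, 3.08 and 10.1 in WT. The groups overlapped there, and column WT3 held 1 read. The narrowest region, GL897155:490232-490441 (210 bp), had 6.27, 5.22 and 5.06 in CF and 13.2, 7.99, 33.8 and 3.35 in WT, and WT4 lay below every CF library. At both regions the WT mean was still the higher one (9.83 against 6.14, and 14.6 against 5.52).

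Residual CF signal went with the surroundings of a region. In CF-signal quartiles from low to high, median CF signal was 4.07, 6.69, 9.58 and 14.5, and the median distance to the nearest CF peak was 5.77, 5.28, 4.82 and 2.69 kb. A CF peak lay within 1 kb of 7.51% of the regions in the lowest quartile and 20.8% in the highest. Seen from the distance, the 431 regions within 1 kb of a CF peak held 27.9% of WT signal in CF, and the 245 with no CF peak within 20 kb held 20.3%. The regions with more CF signal were also wider (451 bp in the lowest and 595 bp in the highest quartile), and their WT fold enrichment was lower in the highest quartile (5.30) than in the other 3 (5.88 to 5.95). Median width was 495 bp within 1 kb of a CF peak and 501 bp at 1 to 5 kb. It was 527 bp at 5 to 20 kb and 519 bp beyond. The median gap to the nearest region of any kind also fell, from 8.10 kb in the lowest to 3.52 kb in the highest CF-signal quartile. The part of width, WT signal and distance in the residue was not tested.

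The WT-only regions are part of the regions of any kind, so the gap to another WT-only region can never be the shorter one. The gap to another WT-only region depends on how many such regions there are, and clustering was not tested. The nearest region of any kind lay at a median gap of 6.30 kb (5.60 kb over all regions), and the nearest CF peak at 4.47 kb. A CF peak, here and above, is a peak of any single CF list, also one outside the measured regions. Such a peak lay within 5 kb of 53.4% of the WT-only regions and within 10 kb of 76.9%. At the CF-only regions, a peak of any WT list lay as near at 55.5% and 76.1%. From the WT-only regions, the nearest region with a peak in all 7 lists lay at a median of 25.1 kb. The nearest other WT-only region lay at 161 kb, and 23.1% had one within 50 kb. Among the CF-only regions, which were more numerous, the corresponding gap was 132 kb and the share 28.1%. WT-only regions within 1 kb of another region were less common (9.75%) than among all regions (17.0%).

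**Figure D5:**
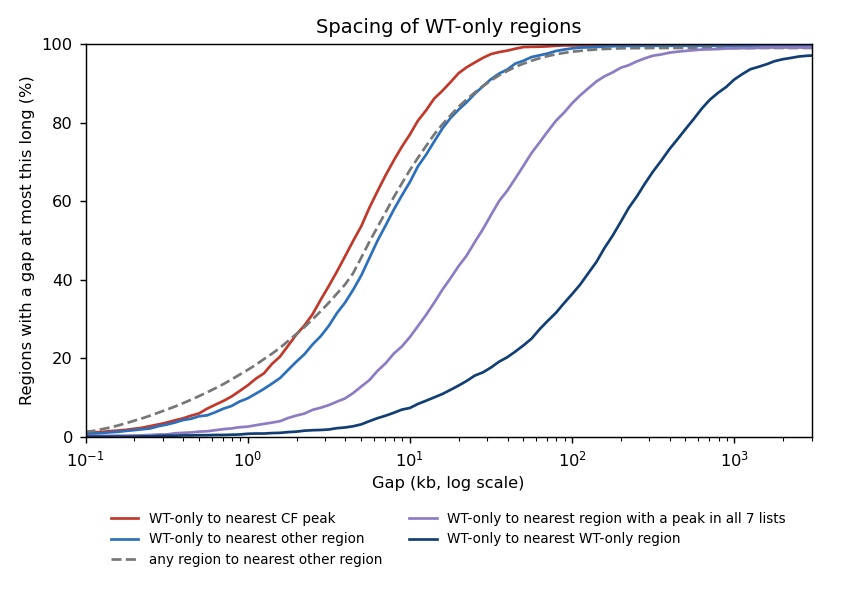
Percent of regions with a gap of at most the length on the x axis (kb, log scale), from WT-only regions to the nearest CF peak, other region, region with a peak in all 7 lists and WT-only region, and from any region to its nearest neighbour (dashed). For the WT-only regions the median gap is 4.47 kb to a CF peak and 161 kb to another WT-only region. CF peaks are far more numerous than WT-only regions, and gaps depend on these numbers.

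Most WT-only regions stood outside runs of neighbouring WT-only regions. With gaps of at most 50 kb, 763 regions fell into 341 runs of 2 or more, of which 59 held at least 3 regions, 15 at least 4 and 4 at least 5. In 216 pairs, WT-only regions were direct neighbours with no other region between them. The CF-only regions formed 298 such pairs, and 522 runs of 2 or more with the same gaps. Whether either set clustered beyond random placement was not tested. The longest run of WT-only regions held 7 regions over 184.4 kb, GL896904:9255390-9439788. It was interspersed with other regions, since 34 regions lay in the span and 10 of them had a peak in all 7 lists. The regions in that span that were not WT-only had a median log2 difference of -0.70.

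The 7 regions of this run differed widely in residual CF signal. GL896904:9346334-9346885 (552 bp) was the strongest, with 10.2, 5.22 and 6.18 in CF and 182, 166, 286 and 161 in WT, so that CF held 3.62% of WT. GL896904:9439190-9439788 (599 bp) had 10.98, 9.70 and 15.7 in CF and 66.0, 115, 119.9 and 126 in WT, with WT1 the lowest WT library. GL896904:9436409-9437100 (692 bp), 2089 bp from it, had 6.27, 3.73 and 8.99 in CF and 73.4, 42.6, 46.1 and 73.7 in WT. At all 7 regions every CF library lay below every WT library. GL896904:9255390-9256207 held 18.6% of WT signal in CF and GL896904:9289231-9289581 held 18.3%. At GL896904:9303042-9303575 and GL896904:9395953-9396570 the share was 34.6% and 34.8%. All 7 had a negative log2 difference, from -4.61 to -1.33.

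Other runs were denser. GL897099:786551-872335 held 6 WT-only regions among 7 regions, with a median log2 difference of -2.46, and the region that was not WT-only had -3.22. GL897183:1159768-1176676 held 4 regions over 16.9 kb and all 4 were WT-only, with a median log2 difference of -4.20 and median signals of 59.4 in WT and 3.71 in CF. GL897015:4251732-4305605 held 4 WT-only regions among 7, with a median difference of -4.19 and a median WT signal of 190.2, and it included the strong region at 4299241.

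The regions lay on 377 of the 1895 scaffolds that carried any region. Over the 318 scaffolds with at least 40 regions, the median share of WT-only regions was 3.12%, and 25 of these scaffolds had none. The highest share was 13.7% on GL897183 (7 of 51 regions), followed by 9.76% on GL897069 and 9.65% on GL897045. Scaffold GL897015, with the strongest region, had 22 of 276 (7.97%).

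Some scaffolds were lower in CF as a whole. On 13 scaffolds the regions with a peak in all 7 lists had a median log2 difference below -0.5. These scaffolds carried 6.87% of all regions and 11.1% of the WT-only regions (367). The median difference of WT-only regions was -2.19 on them and -1.93 elsewhere. GL897015 (-0.69), GL896904 (-0.61) and GL896901 (-0.55) were among the 13, so that the strong regions on GL897015 and the longest run lay on scaffolds of lower signal in CF at shared peaks too. What set the level of these scaffolds was not tested. Regions that were not WT-only had a median difference of -0.08 within 50 kb of a WT-only region and 0.09 farther away.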

How the data were processed

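ATAC-seq libraries (3 CF, 4 WT) were prepared with 12 PCR cycles and read as 150 bp reads. Per the study's methods and the processing notes, the authors trimmed reads with Trimmomatic, aligned them to MusPutFur1.0 with Bowtie 2, called peaks per library with MACS2 and built consensus regions with DiffBind. The consensus regions each overlapped peaks of at least 2 lists. The signal deposited by the authors is whole reads per region times 1 factor per library (100% of values whole to within 0.001 reads), with a minimum of 1 read. The deposited peak lists give a fold enrichment ratio over background, −log10 p-values and q-values, a score (10 times the −log10 q-value) and a summit position. The score and the summit were not used. Peak names carry the word dedup.

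The regions, lists and tests were chosen with earlier results of these data known. For overlaps, a peak start was used as deposited, and a region start was the deposited start plus 1. The region starts printed here are a further 1 higher, so that they name the first base of the region. log2(signal + 1) was fitted over all regions with limma 3.58.1 (R 4.3.3) with a mean trend and genotype alone, and p-values were Benjamini-Hochberg adjusted. The script was tested on simulated data. A call of lower accessibility needed an adjusted p under 0.05 and a log2 difference under -1. Percentages of WT used mean signal per group. edgeR 4.0.16 and DESeq2 1.42.0 were run on the recovered reads as alternatives. Reads in the regions numbered 3226534 to 11047724 per library. Reads carry no molecular identifiers. The SEs and adjusted p-values of the limma fit rest on the spread between libraries and not on counting error alone.

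Named regions were the 6 with the highest WT signal, the 6 with the largest fall (at least 30 mean reads in WT), the 6 with the highest CF signal, the longest run (gaps of at most 50 kb), the widest, the narrowest, the weakest in WT, and the strongest just outside the rule on each side. Other runs and scaffolds were named after their values were seen. Positions relative to genes were not analysed here.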

Additional observations from a re-analysis of the deposited data

Results flagged for a closer look

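Among 37 results tested for a WT library standing apart from the other 3, 3 had such a library. Chance gives about 1 in 20. Column WT3 had 9.15% of the WT-only regions at the minimum of 1 read, against 0% to 0.879% in the other WT columns, and it was also the shallowest library. Column WT2 had the highest percentile of the median WT-only region among all regions of its library (56.8 against 54.8 to 55.1), a gap of small size. At GL896904:9439190-9439788 the log2 signal was 6.07 in WT1 and 6.86 to 6.99 in the other 3, and all 4 lay above the CF libraries.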

How the results depend on the processing

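The median log2 difference of the WT-only regions was negative under all 23 alternatives and every named WT-only region kept its sign under those run for it, while the shared region on GL897119 just outside the rule changed sign (-0.04, or 0.32 when scaled by library size). The median was -1.52 with a pseudocount of 5, -1.62 when scaled by library size alone (all regions at 0.37), -1.78 by upper quartile (all regions at 0.21), -1.79 with reads thinned to the total of the shallowest library and scaled by TMM (-1.91 by TMM alone), -2.57 for regions with 4 WT lists and -1.75 when lists were cut to equal numbers of strongest peaks, which gave 3985 regions that shared 1762 with the 3301. Leaving out 1 library gave -2.02 to -1.88. Residual CF signal was 28.9% by library size and 25.9% by upper quartile. The number of regions depended on the rule, with 989 from 4 of 4 and 9405 from at least 2 of 4 WT lists, and 1032 to 4451 when 1 list was left out. Requiring all 3 remaining WT lists gave 1289 without list WT1, 2468 without WT2, 1032 without WT3 and 1479 without WT4. With 1 matrix column left out, called regions ran from 1230 (without column CF2, 4.10% of all regions called) to 2097 (without column WT3, 7.28%). They were 2180 by edgeR (7.30%) and 2420 by DESeq2 (8.56%). Median width was 589 bp with 4 lists and 584 bp with equal lists. The share with a WT-only neighbour was 7.30% within 10 kb, 36.3% within 100 kb, and within 50 kb 9.61% with 4 lists and 29.5% with equal lists. Centring each scaffold, chosen after seeing the data, gave a median difference of -1.92 and 1843 calls (5.82% of all regions).

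Same-numbered CF and WT libraries did not deviate together (r of 0.08, 0.07 and -0.02), so the numbers were not taken as pairs. With the replicate number as a block, 1938 regions were called over all 7 libraries (6.65% of all regions) and 1860 over donor numbers 1 to 3 (6.46%), with a median difference of -1.95. CF libraries at 1 to 3 reads limit the size of the largest differences.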
